A study of Rattus norvegicus with 8 samples.

Results

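The genes described here are 10 markers of border macrophages, the macrophages that live in the meninges, the choroid plexus and the spaces around brain vessels rather than among neurons and glia. They were read in cells sorted by flow cytometry from the whole brains of rats at postnatal day 7. The 4 A2B5+ samples, named by the labels as oligodendrocyte progenitors, carry a ganglioside epitope of glial progenitors. The 4 GalC+ samples, named as oligodendrocytes, carry galactocerebroside, a lipid of oligodendrocytes and myelin; the design describes each population as positive for its single marker. Each sample was 1 litter of 10 pooled pups on 1 Affymetrix array of 1 colour; no strain, sex, genotype or treatment is given, and neither population is labelled as holding macrophages. The markers were chosen from their difference between these same populations, so that this difference is given as a description, without a test. All 10 were measured, by 12 probe sets, among 14217 genes with a probe set of their own: F13a1 and Lyve1 had 2 probe sets each and the rest 1.

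Border macrophages share the engulfing and scavenging equipment of other tissue macrophages and differ in several surface receptors from microglia, the macrophages of the brain tissue itself. They sit beside vessels and membranes, where they take up material from blood and cerebrospinal fluid. Cd163 encodes the antigen of the antibody ED2, long used in the rat to mark macrophages around brain vessels. The proteins of the 10 genes are receptors that clear haemoglobin, modified proteins and hyaluronan (Cd163, Stab1, Lyve1), lectins that bind sugars (Mrc1, Clec10a, Cd209f and the secreted Fcna), a cross-linking enzyme subunit (F13a1), a membrane-spanning protein of the MS4A family (Ms4a7) and a folate receptor (Folr2).

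RefSeq (build GRCr8) gave a promoter for 9 of the 10 genes; Clec10a had no entry. The 250 bases before the start of each were searched on both strands for the core letters of 5 factors of macrophages. Shown here are Cd163, which had the largest difference, and the 4 promoters that hold the PU.1 letters; capitals mark every match to any of the 5 motifs, and each sequence runs 5′ to 3′ towards the start of its gene.
Cd163 (chr4:158770524-158770773, + strand): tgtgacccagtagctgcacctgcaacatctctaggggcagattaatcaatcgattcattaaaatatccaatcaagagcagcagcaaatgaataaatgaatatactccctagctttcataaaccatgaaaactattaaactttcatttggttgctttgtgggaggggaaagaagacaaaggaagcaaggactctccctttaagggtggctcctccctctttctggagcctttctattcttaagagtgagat
Mrc1 (chr17:82157475-82157724, + strand): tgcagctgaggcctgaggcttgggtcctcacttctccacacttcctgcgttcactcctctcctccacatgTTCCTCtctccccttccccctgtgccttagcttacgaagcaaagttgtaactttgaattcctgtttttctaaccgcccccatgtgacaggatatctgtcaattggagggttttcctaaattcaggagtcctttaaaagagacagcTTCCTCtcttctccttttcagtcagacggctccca
F13a1 (chr17:28020947-28021196, + strand): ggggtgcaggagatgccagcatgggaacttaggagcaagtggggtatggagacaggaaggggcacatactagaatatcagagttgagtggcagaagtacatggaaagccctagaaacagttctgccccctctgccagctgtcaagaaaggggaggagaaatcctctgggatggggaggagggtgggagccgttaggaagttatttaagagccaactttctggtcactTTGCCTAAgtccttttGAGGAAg
Fcna (chr3:28847238-28847487, - strand): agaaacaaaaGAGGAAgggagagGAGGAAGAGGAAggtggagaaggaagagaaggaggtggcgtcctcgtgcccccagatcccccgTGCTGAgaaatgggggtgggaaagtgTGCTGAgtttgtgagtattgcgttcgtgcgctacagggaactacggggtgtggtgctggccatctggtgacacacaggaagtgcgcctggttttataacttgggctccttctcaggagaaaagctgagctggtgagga
Stab1 (chr16:6367360-6367609, - strand): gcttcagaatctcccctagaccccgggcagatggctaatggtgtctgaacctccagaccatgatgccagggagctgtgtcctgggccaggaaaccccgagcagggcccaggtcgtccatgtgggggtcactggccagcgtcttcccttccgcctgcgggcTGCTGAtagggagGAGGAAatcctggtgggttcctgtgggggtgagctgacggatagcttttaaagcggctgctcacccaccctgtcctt

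The letters GAGGAA of PU.1 stood in 4 of the 9 promoters (Mrc1, F13a1, Fcna and Stab1) and in 23.2% of all 27457 promoters of that length. Mrc1 held them as the reverse complement in 2 places, and Fcna held 3 copies on the coding strand. The letters TGCTGA of MAF stood in 3 (Fcna, Folr2 and Stab1, against 15.2%), GAAANNGAA of IRF factors in 2 (Ms4a7 and Folr2, against 7.99%) and TTGCNNAA of C/EBP factors in 1 (F13a1, against 9.2%). None held TGANTCA of AP-1, which stood in 6.36% of promoters, and the windows of Cd163, Cd209f and Lyve1 held none of the 5. No motif was common to the 9 genes in this window. Their GC content lay between 40% (Ms4a7) and 61.6% (Stab1), beside a median of 52% over all promoters. CG dinucleotides lay on both sides of the median of 6 over all promoters. Cd163, F13a1 and Ms4a7 held 1 each, Lyve1 2, Mrc1 and Folr2 4 each, Cd209f 7, and Fcna and Stab1 8 each.

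The deposited value of a probe set is its signal divided by its own median over the 8 arrays. A value of 1 is therefore the middle of the 8 ranked arrays of that probe set, and not the midpoint of the population means. Where the populations do not overlap, it lies between the nearest arrays of the populations. The values carry no level that could be set against another gene's. For every one of the 12 probe sets the 4 GalC+ arrays lay above the 4 A2B5+ arrays without overlap, which was also so for 18.5% of all genes. Over the 10 genes the GalC+ mean was higher than the A2B5+ mean by a median of 4.02 on the log2 scale, with a range of 2.44 to 5.42, beside a median of 0.04 over all genes. The difference was at least 8-fold for 8 of the 10, and 0.408% of all genes were higher by that much; since the genes were picked from this contrast, nothing is read from these counts. In bulk samples, fewer cells of a type and less RNA per cell cannot be told apart.

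**Figure D1:**
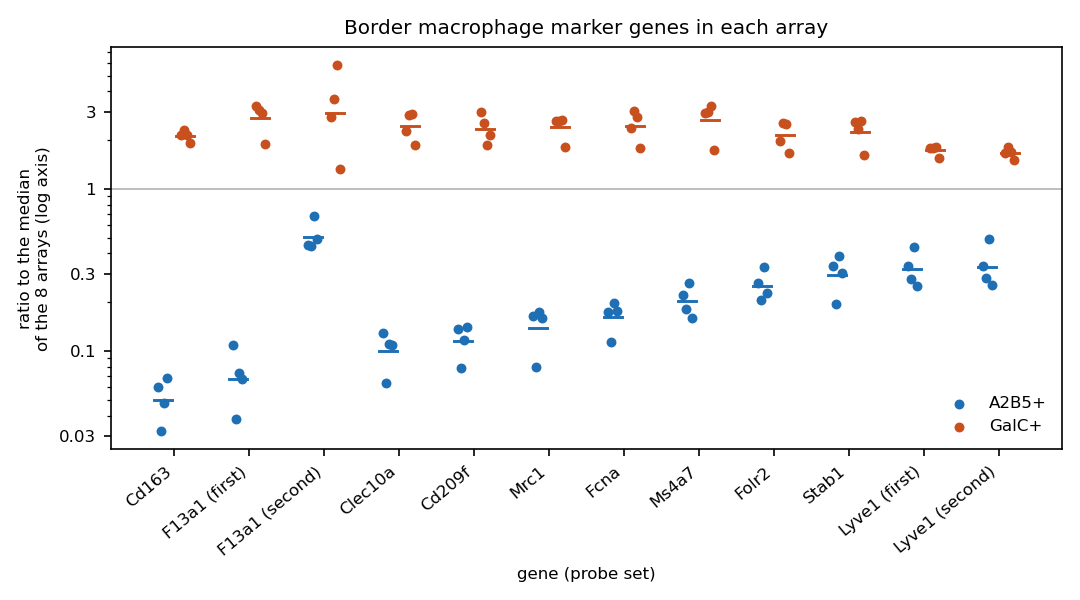
Ratio of each probe set to its median over the 8 arrays (log axis) for the 10 border macrophage markers, ordered by their difference; points are single arrays and bars are the mean of the 4 arrays of a population on the log scale. The A2B5+ arrays lie between 0.0321 and 0.677 and the GalC+ arrays between 1.32 and 5.8, with the second probe set of F13a1 the most scattered in GalC+.

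Among the clearance receptors, Cd163, which binds haemoglobin in complex with haptoglobin for uptake and breakdown, had the widest separation (probe set 1393917_at). Its ratio was 0.0602, 0.0321, 0.0477 and 0.0679 in A2B5+ replicates 1 to 4, and 2.16, 2.3, 2.16 and 1.93 in GalC+ replicates 1 to 4. The GalC+ arrays were close together (2.14 ± 0.151 SD, n = 4), while the A2B5+ values spread more on the log scale (SD 0.48 against 0.10). The difference was 5.42 ± 0.24 (log2, SE from the spread of both groups, n = 4 and 4), or 42.7-fold, and the closest pair of arrays from the 2 populations still differed 28.5-fold.

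Stab1 encodes stabilin-1, a large receptor that takes up modified lipoproteins and other waste. In A2B5+ it read 0.335, 0.194, 0.384 and 0.303, and in GalC+ 2.59, 2.35, 2.61 and 1.62 (1374247_at). GalC+ replicate 4 was the lowest of its population, as it was for Cd163, and the difference was 2.93 ± 0.27 (7.63-fold). Lyve1, a hyaluronan receptor that is also used as a marker of lymphatic endothelium, was read by a pair of probe sets that gave near equal values. With 1382732_at the A2B5+ arrays read 0.335, 0.279, 0.441 and 0.251 and the GalC+ arrays 1.78, 1.8, 1.82 and 1.56. With 1382192_at they read 0.333, 0.282, 0.488 and 0.256, and 1.67, 1.81, 1.69 and 1.51. Lyve1 had the smallest separation of the 10 genes, 2.44 ± 0.19 (5.44-fold) and 2.34 ± 0.21 (5.07-fold).

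Of the lectins, Mrc1 encodes the mannose receptor, which takes up glycoproteins that end in mannose. Its ratio was 0.164, 0.0801, 0.175 and 0.16 in A2B5+ and 2.61, 2.64, 2.67 and 1.82 in GalC+ (1392648_at), so that 3 arrays of each population lay close together and 1 lay below them. The difference was 4.12 ± 0.30 (17.4-fold). Clec10a encodes a lectin for galactose and its N-acetylated amine. It read 0.129, 0.0638, 0.111 and 0.109 in A2B5+ and 2.29, 2.86, 2.92 and 1.87 in GalC+ (1368464_at), a difference of 4.61 ± 0.27 (24.5-fold). Cd209f belongs to the family of DC-SIGN, lectins that bind pathogens and cell-surface sugars. It read 0.137, 0.0784, 0.117 and 0.141 in A2B5+ and 3, 2.54, 1.86 and 2.14 in GalC+ (1384905_at). It was the one gene of the 10 whose lowest GalC+ array was replicate 3 and not replicate 4, and its difference was 4.35 ± 0.25 (20.3-fold). Fcna encodes ficolin A, a secreted lectin that can start complement. It read 0.174, 0.113, 0.199 and 0.176 in A2B5+ and 2.38, 3.01, 2.77 and 1.8 in GalC+ (1387794_at), which gave 3.92 ± 0.24 (15.1-fold).

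F13a1 encodes the catalytic A chain of coagulation factor XIII, which cross-links fibrin and matrix proteins. Its probe sets differed in size. The first, 1374779_at, read 0.109, 0.0382, 0.0729 and 0.0671 in A2B5+ and 3.23, 3.08, 2.94 and 1.89 in GalC+, a difference of 5.34 ± 0.36 (40.6-fold). The second, 1369724_at, read 0.451, 0.443, 0.677 and 0.488 in A2B5+ and 2.79, 3.59, 5.8 and 1.32 in GalC+, a difference of 2.55 ± 0.47 (5.84-fold). The second had the widest spread of the 12 in GalC+ (SD 0.89 on the log2 scale), and the mean of both was 3.94. Both placed every GalC+ array above every A2B5+ array, and the size of the F13a1 difference depends on which is read.

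Ms4a7, a membrane-spanning protein of macrophages, read 0.223, 0.181, 0.263 and 0.161 in A2B5+ and 2.93, 2.98, 3.24 and 1.74 in GalC+ (1378193_at). The difference was 3.70 ± 0.26 (13-fold). Folr2, the folate receptor beta of macrophages, read 0.263, 0.207, 0.331 and 0.229 in A2B5+ and 1.98, 2.57, 2.51 and 1.67 in GalC+ (1390348_at), a difference of 3.08 ± 0.21 (8.47-fold). In order of the difference the genes ran Cd163, F13a1, Clec10a, Cd209f, Mrc1, Fcna, Ms4a7, Folr2, Stab1 and Lyve1. Of the 9 gaps between neighbours in this order, only those from F13a1 to Clec10a, from Ms4a7 to Folr2 and from Stab1 to Lyve1 were wider than their combined SE. A probe set near its background has its fold compressed, and without levels this could not be judged, so that the order is one of these probe sets rather than of the genes. With the arrays forced to one distribution by quantile normalization the median over the 10 genes was 3.28, and Cd163 stood at 4.27 and the first F13a1 probe set at 4.28.

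The 10 genes lay on the same side of their population's mean on some arrays and not on others. A2B5+ replicate 2 lay below the mean of the 4 A2B5+ arrays for all 10, by a median of -0.58 (log2), and GalC+ replicate 4 lay below the mean of the 4 GalC+ arrays for all 10, by a median of -0.39. A2B5+ replicate 1 (median 0.21) and GalC+ replicate 2 (median 0.15) lay above it for all 10, and A2B5+ replicate 3 (median 0.32) and GalC+ replicate 3 (median 0.17) for 9. The genes split on the other arrays: in A2B5+ replicate 4, 4 of the 10 lay below the mean, with Lyve1 at -0.35 and Cd163 at 0.44, and in GalC+ replicate 1, 3 did. The shift was not shared by the whole array: over all genes the median deviation was -0.01 in A2B5+ replicate 2 and 0.01 in GalC+ replicate 4. Myelin genes were also low on both arrays (medians -0.65 and -0.53), as were genes of mural cells and fibroblasts (-0.47 and -0.36). The other border macrophage genes (-0.26 and -0.29) and the pan-myeloid genes (-0.28 and -0.27) were low on both too. Microglia markers were at -0.18 and -0.03. Endothelial genes were the lowest of these lists in A2B5+ replicate 2 (-0.73) and were raised in GalC+ replicate 4 (0.24). The part of these other genes in the spread of the markers was not tested. Without A2B5+ replicate 2 the median difference of the 10 genes was 3.80, and without GalC+ replicate 4 it was 4.16.

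**Figure D2:**
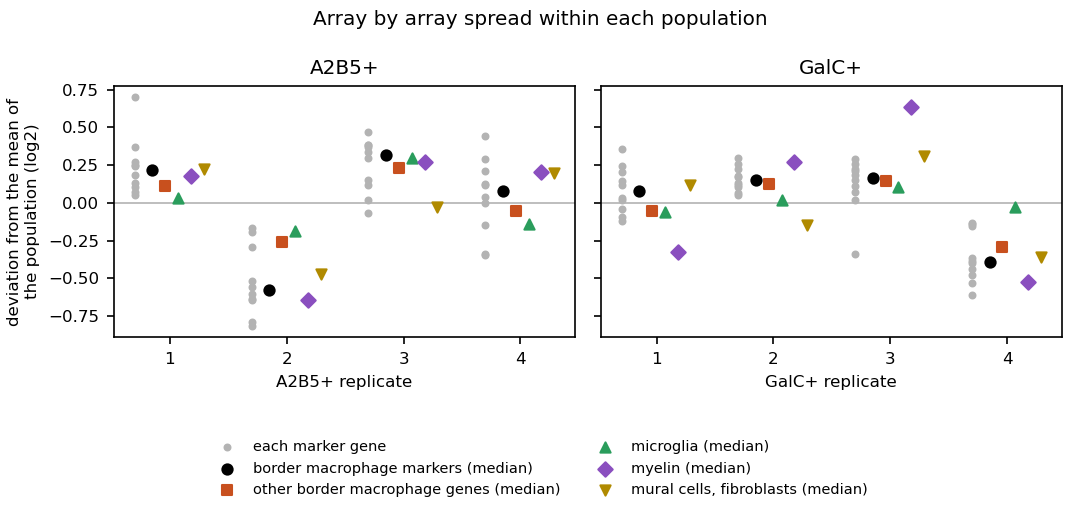
Deviation of each array from the mean of its own population (log2), for each border macrophage marker (grey) and as the median over the markers and over 4 other gene lists. All 10 markers lie below 0 in A2B5+ replicate 2 and in GalC+ replicate 4.

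Other genes reported for macrophages of the brain's borders were higher in GalC+ nearly throughout. Of 21 measured, 19 were higher, none was lower and 2 did not pass (limma, adjusted p under 0.05 over all genes), with a median of 2.15 on the log2 scale; among all 14217 genes 18.2% were higher and 17.5% lower. The chemokine receptor Ccr1 led (4.86 ± 0.23 SE, adjusted p = 2.06e-06), with ratios of 0.0482 to 0.102 in A2B5+ and 1.9 to 2.79 in GalC+. The chemokine Ccl24, which draws eosinophils, followed (4.17 ± 0.30, adjusted p = 1.35e-05; 0.118 to 0.227 against 1.77 to 4.35). The scavenger receptor Colec12 (2.96) was higher too, as were the platelet factor Pf4 (2.35) and the endocytic adaptor Dab2 (2.15), both named after their values were seen. Named for the same reason, Slco2b1 (0.58, adjusted p = 0.0594) and Clec4m (0.23, adjusted p = 0.168) did not pass. The count stayed at 18 to 20 when any single array was left out. It was also 19 with the probe sets of a gene averaged, but not for the same genes. Gas6 (0.67, also named after its value was seen) then did not pass (-0.01, adjusted p = 0.958), and Slco2b1 did (0.59, adjusted p = 0.038). This list, like the others, was chosen with earlier results of these data known.

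Microglia markers did not share this pattern. Of 20 measured, 3 were higher, 2 were lower and 15 did not pass, and their median was -0.01. P2ry12, the purine receptor by which microglia sense damage, had ratios of 0.9 to 1.91 in A2B5+ and 0.742 to 1.24 in GalC+ (-0.35 ± 0.24, adjusted p = 0.286). Tmem119 read 0.894 to 1.95 and 0.72 to 1.13 (-0.39 ± 0.23, adjusted p = 0.217). The populations overlapped for both genes. The higher members were Trem2 (0.76, adjusted p = 0.0298), Mef2c (0.71, adjusted p = 0.0175) and Olfml3 (0.59, adjusted p = 0.0132, named after its value was seen). Adgrg1 (-0.59, adjusted p = 0.00181) and Sall1 (-0.31, adjusted p = 0.0333), a transcription factor that keeps microglial identity, were lower. Trem2 did not pass without A2B5+ replicate 1, 2 or 4 or GalC+ replicate 2 or 3 (adjusted p = 0.0661 to 0.0843). Sall1 did not pass without A2B5+ replicate 2 or 3 or GalC+ replicate 1 or 2 (adjusted p = 0.0765 to 0.0871).

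Genes shared by most myeloid cells stood between these lists. Of 25 measured, 19 were higher and none lower, with a median of 0.76. The oxidase subunit Cybb rose most (3.80 ± 0.22, adjusted p = 3.15e-06, or 2.98 averaged over its 2 probe sets), followed by the lysosomal protein Cd68 (2.28 ± 0.16, adjusted p = 9.27e-06). Ptprc, which encodes the leukocyte antigen CD45, was 2.07-fold higher (adjusted p = 7.59e-04), and Csf1r, the receptor on which macrophages depend for survival, was 1.83-fold higher (adjusted p = 0.00393). The difference of these pan-myeloid genes was smaller than that of each of the 10 markers except for Cybb, which exceeded the 4 markers from Ms4a7 to Lyve1. Averaged over its 2 probe sets, Cybb exceeded only Stab1 and Lyve1. The markers were picked for a large difference, so nothing is read from their place above this list. Spi1, the gene of PU.1, was not read by a probe set with that symbol alone.

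**Figure D3:**
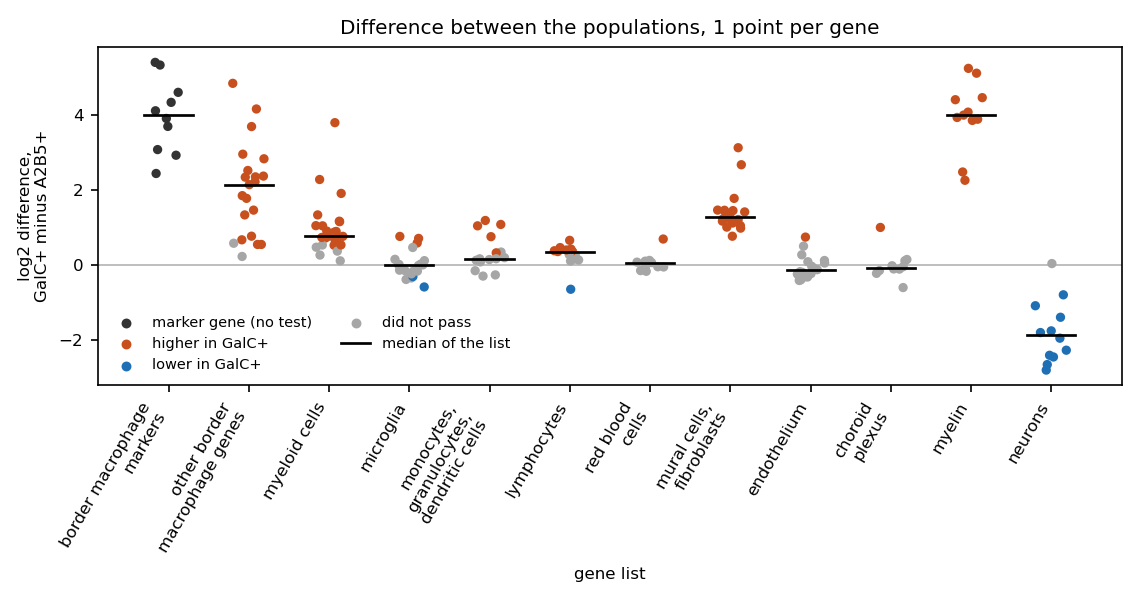
Difference between GalC+ and A2B5+ (log2) for each gene of the border macrophage markers and of 11 other lists, with the median of each list as a bar; orange points were higher and blue points lower in GalC+ by limma, and grey points did not pass. The markers (median 4.02) and the other border macrophage genes (2.15) lie above the microglia list (-0.01). The markers were picked for a large difference, so nothing is read from their median, and the lists were chosen with earlier results of these data known.

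Markers of other cells of blood and of the brain's coverings were read the same way. Of 16 genes of monocytes, granulocytes and dendritic cells 5 were higher and none lower (median 0.16), led by the integrin Itgax (1.19) and the ficolin Fcnb (1.08). Their median ratio per array was 0.881 to 1.02 in A2B5+ and 1.03 to 1.16 in GalC+. Of 14 lymphocyte genes 8 were higher and 1 lower (median 0.35), with Lck (0.66) and Cd8b (0.46) highest and Il7r lower (-0.65); without A2B5+ replicate 2 or without GalC+ replicate 2 only 3 were higher, and without A2B5+ replicate 1 or replicate 4 or GalC+ replicate 3, 5 were. Cd8b did not pass without A2B5+ replicate 2 or GalC+ replicate 2, 3 or 4 (adjusted p = 0.0527 to 0.0703), and Il7r did not without A2B5+ replicate 1 (0.0547) or averaged over its 2 probe sets (0.0617). Of 12 genes of red blood cells 1 was higher, Gypc (0.69), and Hbb did not pass (-0.15 ± 0.20, adjusted p = 0.581). Of 19 endothelial genes 1 was higher and none lower, and that gene, Egfl7 (0.74, adjusted p = 0.0477), did not pass without A2B5+ replicate 2 or 4 or GalC+ replicate 1, 2 or 3 (adjusted p = 0.0722 to 0.114), nor under quantile normalization, median centring or array weights (0.0548 to 0.0578). With the replicate number added to the fit as a block, 4 endothelial genes were lower and 2 higher. Whether arrays of 1 number share a litter is not stated. Choroid plexus epithelium had 1 of 10 higher, Enpp2 (1.00).

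Genes of mural cells and fibroblasts, which share the spaces around vessels with these macrophages, were higher in GalC+ in 18 of 18 cases, with a median of 1.28. With the probe sets of a gene averaged, 17 were. Pdgfrb (0.77), named after its value was seen, then did not pass (0.32, adjusted p = 0.0527 by limma). Smooth muscle myosin Myh11 (3.13, mean of its 2 probe sets 1.66) and Tagln (2.68) led. The median ratio of the list was 0.461 to 0.749 in A2B5+ arrays and 1.25 to 2.01 in GalC+ arrays. Their part in the marker difference was not tested. The sorted populations themselves showed 11 of 11 myelin genes higher in GalC+ (median 4.01). Mbp was 14.6-fold higher (3.86 on the log2 scale) in 1 of its 3 probe sets, and 2.50 as their mean. Progenitor genes were lower in 5 of 9 cases (median -0.61), Pdgfra among them at 2.4-fold, and neuron genes in 11 of 12 (median -1.89).

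Genes for uptake and breakdown of haem and for iron handling, the pathway into which Cd163 feeds, were higher in 10 of 20 cases and lower in none, with a median of 0.37. The step that opens haem, Hmox1, had ratios of 0.464 to 0.832 in A2B5+ and 1.17 to 1.86 in GalC+ (1.35 ± 0.21, adjusted p = 8.95e-04). The iron exporter Slc40a1 was higher as well (0.363 to 0.758 against 1.24 to 1.46; 1.23 ± 0.21, adjusted p = 0.00155). The haem carrier Slc48a1 (1.59) and the copper oxidase Cp, which readies exported iron for transferrin, rose most; Cp stood at 2.41 in 1 of its 3 probe sets and 1.10 as their mean. Blvrb (1.24) and Blvra (0.86), which reduce biliverdin, and the ferroxidase Heph (1.36) were named after their values were seen. Haptoglobin (Hp, -0.06) and hemopexin (Hpx, 0.21), carriers of haemoglobin and haem in plasma and also named after their values were seen, did not pass. Several of these genes are also expressed by oligodendrocytes or by other cells of the brain.

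Other scavenger receptors and C-type lectins were higher in 15 of 27 cases and lower in 1, with a median of 0.42. Colec12 and Clec4a (2.87), an inhibitory lectin of myeloid cells, rose most, and Scara3 was lower (-0.72, adjusted p = 0.0177). This list shares 5 genes with the other border macrophage genes, 18.5% of its own members and 23.8% of theirs. Relatives and partners of the 10 markers went both ways, with 10 of 35 higher and 4 lower and a median of 0.15. Hapln2, a link protein of hyaluronan at the nodes of myelinated axons, rose most (4.27 in 1 of its 3 probe sets, 1.77 as their mean), followed by the Ms4a7 relative Ms4a6bl1 (2.22). Masp2, the protease that ficolins activate, was lower (-1.01, or -0.31 averaged over its 3 probe sets), as was the hyaluronan receptor Hmmr (-0.99), a gene of dividing cells. Stab2, the relative of Stab1, was higher by 0.74 and was named after its value was seen. Without A2B5+ replicate 2, GalC+ replicate 1 or GalC+ replicate 2, 2 of the list were lower in place of 4.

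Transcription factors of macrophages were higher in 12 of 21 cases and lower in 1 (median 0.53). Tfec (1.93), Cebpb (1.79) and Maf (1.78, mean of its 3 probe sets 1.13), a factor that holds macrophages in a resident state, were the largest, and Sall1 was the one that was lower, with the same arrays deciding its call as in the microglia list. Growth factors of macrophages and their receptors were higher in 7 of 12 cases and lower in none (median 0.52). The alpha chain of the GM-CSF receptor Csf2ra (1.64) and Il34 (1.09), a ligand of Csf1r, led.

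The 10 other genes closest to the mean profile of the markers over the 8 arrays included the pan-myeloid gene Cybb and 2 myelin genes. The rest were on none of the lists. Closeness was the root mean square difference of log2 values over the 8 arrays. It takes in the difference from which the markers were picked, so genes with a difference near the markers' mean come first. Those of the 10 ran from 3.50 (Adamts4) to 4.23 (Cfd), and nothing about shared cells is read from them. Complement factor D, Cfd, was nearest (0.18), then Sema4d (0.24), S1pr5 (0.24), Cybb (0.25), Ppp1r14a (0.26), the myelin genes Mag (0.27) and Cldn11 (0.30), Adamts4 (0.33), Fcmr (0.33) and Slc5a11 (0.34). Among the markers themselves Mrc1 (0.14) and Fcna (0.16) lay closest to the mean, and Cd163 (1.11) and Lyve1 (0.88), the ends of the range, lay farthest.

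The genes beside the markers on the chromosome, taken from the RefSeq order of protein-coding genes, were read up to 2 genes to either side. Of 22 that were measured 7 were higher, 6 were lower and 9 did not pass, with a median of 0.02. Among all genes 18.2% were higher and 17.5% lower. The largest was Asgr2, a lectin gene related to Clec10a and next to it (1.76, adjusted p = 4.21e-04), followed by Irag1 beside Lyve1 (1.69, adjusted p = 2.73e-04). Prr36 near Cd209f was the lowest (-1.92, adjusted p = 6.67e-04). Folr1, which lies next to Folr2 and encodes the folate receptor of epithelia, did not pass (-0.11 ± 0.16, adjusted p = 0.621). None of the 22 had a difference as large as that of the marker beside it. The markers were picked for a large difference, so nothing is read from that. The neighbours of Ms4a7 were not measured. The neighbours named here were chosen after their values were seen.

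**Figure D4:**
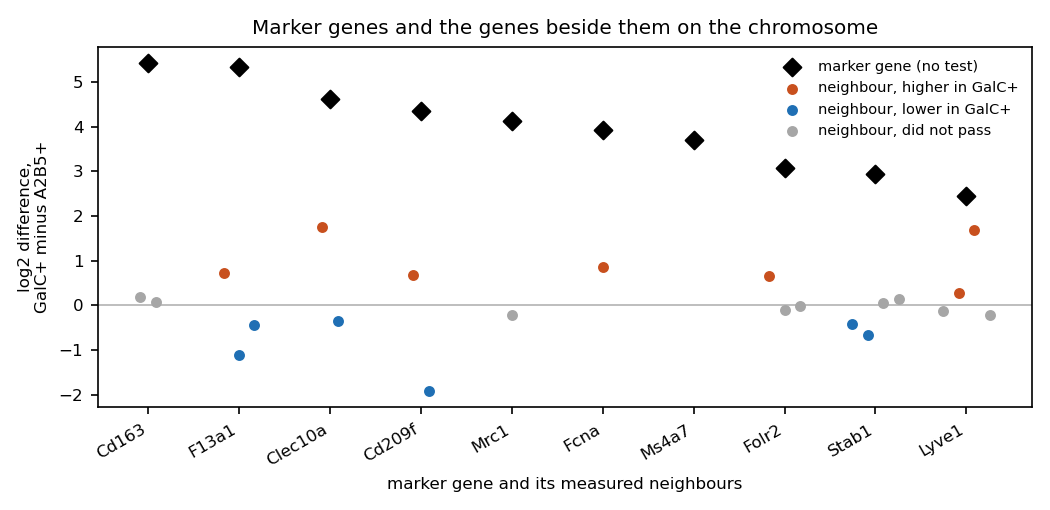
Difference between GalC+ and A2B5+ (log2) of each border macrophage marker (diamonds) and of the measured genes within 2 places of it on the chromosome (points, coloured by the limma call). Every neighbour lies below its marker, but the markers were picked for a large difference. Asgr2 beside Clec10a is the highest neighbour, at 1.76.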

How the data were processed

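Per the submitters' processing notes the arrays were summarised with RMA (no version is stated in those notes). Each deposited number is a linear ratio, the signal over the probe set's median across the 8 arrays, as the values show: all 31099 rows have a median of 1 within 0.001. They were log2 transformed, with no pseudocount and no further scaling; 57 control rows were left out. Of 31042 probe sets, 20826 had 1 gene symbol in the platform annotation, 436 several and 9780 none. A gene was read from its probe set of largest variance over the 8 arrays, since brightness is not kept. That variance includes the difference between the populations. For the 4525 genes with several probe sets the choice therefore favours probe sets with a larger difference, in the lists and among all genes alike. GalC+ was compared with A2B5+ by limma 3.58.1 (R 4.3.3; two-sided, Benjamini-Hochberg over all genes). Errors of the 10 markers are SEs from both group SDs; other SEs are limma's. The fit was checked on simulated data with independent noise in each value. Those data held no deviations that genes share on an array, so the check does not cover them.

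The markers and gene lists were chosen with earlier results of these data known. Named genes are all markers, up to 2 rises and 2 falls of each list, some defining genes, and others marked as named after their values were seen. Symbols were matched through RefSeq (GRCr8). Per the labels each replicate of a population is its own pooled litter; whether A2B5+ and GalC+ arrays of 1 number share a litter is not stated in the sources used here. The number of arrays limits the precision; no batch is given. Same-numbered arrays did not all deviate together (correlations 0.40, 0.09, 0.30 and 0.17), so the numbers were not used as pairs. Other settings tried were leaving out each array, array weights, a trended and robust prior, the spread of each probe set alone, median centring, quantile normalization, a replicate block, averaging the probe sets of a gene, group medians for the markers, and an adjusted p under 0.01.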

Additional observations from a re-analysis of the deposited data

Results flagged for a closer look

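In 10 of 116 groups of 4 arrays, 1 array lay far from the other 3 by Dixon's ratio at its 95% critical value; chance flags about 1 in 20 groups. Among the border macrophage markers, Mrc1 was low in A2B5+ replicate 2 (0.0801, the others 0.16 to 0.175) and in GalC+ replicate 4 (1.82, the others 2.61 to 2.67). Ms4a7 was low in GalC+ replicate 4 (1.74 against 2.93 to 3.24), as was 1 probe set of Lyve1 (1.56 against 1.78 to 1.82). Mef2c was low in the same array (0.935 against 1.24 to 1.31). Il34 (0.498 against 0.806 to 0.838), Egfl7 (0.472 against 0.894 to 1.01) and Cd8b (0.671 against 0.949 to 0.994) were low in A2B5+ replicate 2. Cd8b was also low in GalC+ replicate 1 (1.01 against 1.27 to 1.31), and Adgrg1 in GalC+ replicate 2 (0.641 against 0.82 to 0.855).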

How the results depend on the processing

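The median difference of the 10 markers was 3.28 after quantile normalization (4.02 as reported) and 3.80 to 4.16 when 1 array was left out; no marker changed sign in any alternative. Counts moved as follows; the causes were not tested. In a separate limma fit of all 31042 probe sets, adjusted over those probe sets, 4204 were higher and 4109 lower. With 1 array left out these counts were 3330 to 4334 and 3086 to 4129. At an adjusted p under 0.01 they were 2595 and 2316. At that threshold gene calls fell to 0 higher and 1 lower for microglia, and 2 higher and 0 lower for lymphocytes. Gene calls were 6 higher and 0 lower for transcription factors, 0 lower for scavenger receptors, 2 lower for partners and 0 higher for endothelium. With the spread of each probe set alone they were 1 higher and 1 lower for microglia, 4 and 0 for lymphocytes, 6 and 0 for transcription factors, 0 lower for scavenger receptors, 2 lower for partners and 0 higher for endothelium. Whether arrays of 1 number share a litter is not known, and 6 of 8 arrays correlated best with their own number, a hint from the data and not from the design. With the replicate block, 1 haem gene (0 as reported), 2 scavenger receptors (1), 4 endothelial genes (0) and 1 choroid plexus gene (0) were lower and 2 endothelial genes (1) higher; 4506 probe sets were then higher and 4688 lower. The mean of probe sets gave 0 lower for lymphocytes and 2 for partners. Array weights gave 1 lower for microglia, 0 lower for transcription factors and 0 higher for endothelium, which quantile normalization and median centring also put at 0. With 1 array left out, lower calls were 1 to 2 for microglia, 2 to 5 for partners, 0 to 1 for transcription factors and 0 to 1 for lymphocytes; higher calls were 3 to 7 for lymphocytes and 0 to 1 for endothelium.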
